A study of Mus musculus with 12 samples.

Results

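The 38 genes described here encode proteins of the extracellular matrix or mark the cells that lay it down, and they were followed across 12 RNA-seq libraries of mouse embryonic stem cells (ESCs), pluripotent cells kept in culture. They were taken by name from a list and not by a threshold on their values. Of them, 22 are interstitial genes typical of fibroblasts, 11 are basement membrane genes and 5 are matrix genes that many cell types express. All 38 were among the 23496 genes of the deposited table, and all 38 passed the filter for testing, as did 12329 genes in all. The study was designed to find the genes that Tfcp2l1, a transcription factor of naive pluripotency, regulates in 2i medium.

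The libraries form 3 groups of 4. ESCs labelled as knockout for Tfcp2l1 (KO) were grown in 2i, a serum-free medium with LIF at 1000 units/mL, the GSK3 inhibitor CHIR99021 at 3 µM and the MEK inhibitor PD0325901 at 1 µM. Wild-type ESCs were grown in the same 2i medium. The remaining wild-type ESCs were grown without the inhibitors, in a medium with 15% fetal bovine serum (FBS) and the same amount of LIF. The labels used here give neither the ESC line, the number of KO clones, the knockout allele nor the surface or cell layer on which the ESCs were grown, and they do not say whether the replicates were grown apart. The p-values therefore refer to the spread among these libraries, which may be purely technical.

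The interstitial matrix is a mesh of fibrillar collagens, proteoglycans and microfibrils that fibroblasts secrete and lysyl oxidases cross-link. The basement membrane is a thin sheet of laminin and collagen IV networks, joined by nidogens and perlecan, which epithelia and early embryonic cells lay down. Mouse embryonic fibroblasts are a common feeder layer for ESCs, and their RNA can enter an ESC library, whereas ESCs themselves make laminins and nidogens.

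Levels are given as FPKM, the fragments of a transcript corrected for its length in kilobases and for the mapped fragments of the library, which allows levels of genes of different length to be set side by side. The bounds deposited with each value gave an estimated depth of 11500000 to 17800000 fragments per library. Between 11542 and 11869 genes per library reached 1 FPKM. Tfcp2l1 itself averaged 78.9 ± 5.92 FPKM in KO and 132 ± 13.8 in wild type in 2i (SD, n = 4 each), a value over the whole transcript that cannot show the loss of single exons. The ESC genes Pou5f1 (Oct4), at 804 ± 24.2 FPKM in KO, 936 ± 65.2 in wild type in 2i and 760.3 ± 73.4 in wild type in FBS, and Sox2, at 167 ± 13.2, 185 ± 16.2 and 197 ± 19.02 FPKM, were abundant in all 3 groups.

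Promoters of 5 members are shown because they cover both kinds of matrix: Col1a2 and Col3a1 are fibrillar collagen genes, Nid1 is a basement membrane gene that fell in KO, and Col4a1 and Col4a2 are neighbours read in opposite directions. In the deposited mm9 coordinates the entries of Col4a1 (chromosome 8, 11198423 to 11312826) and Col4a2 (chromosome 8, 11312829 to 11449287) had 2 bases between them. Each sequence runs from 250 bases before the RefSeq start to 50 bases after it, on the gene's own strand in GRCm38.p6, with CCAAT, its reverse complement ATTGG, and TATAAA in capitals. The windows are Col1a2 chr6:4505368-4505667 (plus strand), Col3a1 chr1:45311288-45311587 (plus), Nid1 chr13:13437352-13437651 (plus), Col4a1 chr8:11312777-11313076 (minus) and Col4a2 chr8:11312555-11312854 (plus), and the last pair share 78 bases.
Col1a2: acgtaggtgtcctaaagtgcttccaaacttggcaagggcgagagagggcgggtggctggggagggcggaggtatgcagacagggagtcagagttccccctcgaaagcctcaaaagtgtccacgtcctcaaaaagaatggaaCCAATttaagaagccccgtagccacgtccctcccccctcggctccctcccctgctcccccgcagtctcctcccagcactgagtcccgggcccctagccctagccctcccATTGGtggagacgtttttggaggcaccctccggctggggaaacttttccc
Col3a1: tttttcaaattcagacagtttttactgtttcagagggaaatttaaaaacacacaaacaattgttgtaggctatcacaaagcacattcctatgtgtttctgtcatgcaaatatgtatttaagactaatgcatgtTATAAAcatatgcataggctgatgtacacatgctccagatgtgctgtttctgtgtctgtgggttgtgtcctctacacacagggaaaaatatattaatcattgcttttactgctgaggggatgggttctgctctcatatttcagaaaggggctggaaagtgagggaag
Nid1: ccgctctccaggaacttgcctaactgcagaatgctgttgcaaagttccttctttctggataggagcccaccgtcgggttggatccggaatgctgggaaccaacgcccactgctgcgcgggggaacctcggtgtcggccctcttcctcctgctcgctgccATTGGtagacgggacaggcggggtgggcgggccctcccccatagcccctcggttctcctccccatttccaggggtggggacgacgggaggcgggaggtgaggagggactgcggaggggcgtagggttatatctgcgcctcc
Col4a1: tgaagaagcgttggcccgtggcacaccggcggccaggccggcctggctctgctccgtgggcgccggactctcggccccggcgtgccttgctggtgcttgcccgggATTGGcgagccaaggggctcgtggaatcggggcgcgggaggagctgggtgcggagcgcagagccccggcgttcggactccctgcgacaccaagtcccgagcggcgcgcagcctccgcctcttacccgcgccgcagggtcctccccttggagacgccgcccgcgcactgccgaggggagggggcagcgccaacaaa
Col4a2: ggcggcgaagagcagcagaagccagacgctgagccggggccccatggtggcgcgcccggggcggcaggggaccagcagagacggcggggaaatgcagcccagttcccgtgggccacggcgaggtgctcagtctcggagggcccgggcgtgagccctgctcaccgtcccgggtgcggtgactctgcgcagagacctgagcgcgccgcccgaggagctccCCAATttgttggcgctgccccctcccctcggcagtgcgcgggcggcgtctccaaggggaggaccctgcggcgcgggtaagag
Relative to the start, counted as position 1, CCAAT began at -109 in Col1a2 and -32 in Col4a2, and ATTGG began at 1 in Col1a2, -91 in Nid1 and -145 in Col4a1. The Col3a1 window held neither and had TATAAA at -117.

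Of the 38 members, 24 had a promoter in the RefSeq table. With both strands searched and each motif counted on its own whatever it overlapped, CCAAT was in 11 of the 24, against 37.4% of all 32851 promoters. TATAAA was in 3 of 24, against 13.6%. GGGCGG, the core of the Sp1 motif, was in 18 of 24, against 35.7%. The tandem CP2 half-site, the motif of the Tfcp2l1 family, was in 19 of 24, against 54.7% of all promoters. A member was counted if any of its promoters held the motif, whereas the share over all counts each promoter, so the shares are not strictly alike. These are matches of letters in a short window and no measure of binding.

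The first comparison set KO against wild type in 2i. The interstitial genes were higher in KO almost without exception: 21 of 22 rose, 0 fell, and Pdgfrb did not pass, where 45.3% of all genes tested were called, 24.0% higher and 21.4% lower. Their median log2 difference was 0.85, against 0.01 over all genes tested. The basement membrane genes divided: 2 of 11 rose, 4 fell and 5 did not pass, with a median of -0.11. Of the 5 broadly expressed genes 3 rose, 1 fell and 1 did not pass. A gene was called at a Benjamini-Hochberg adjusted p under 0.05 in limma, fitted to all 12 libraries on log2(FPKM + 1), a scale that understates the change of low genes.

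**Figure D1:**
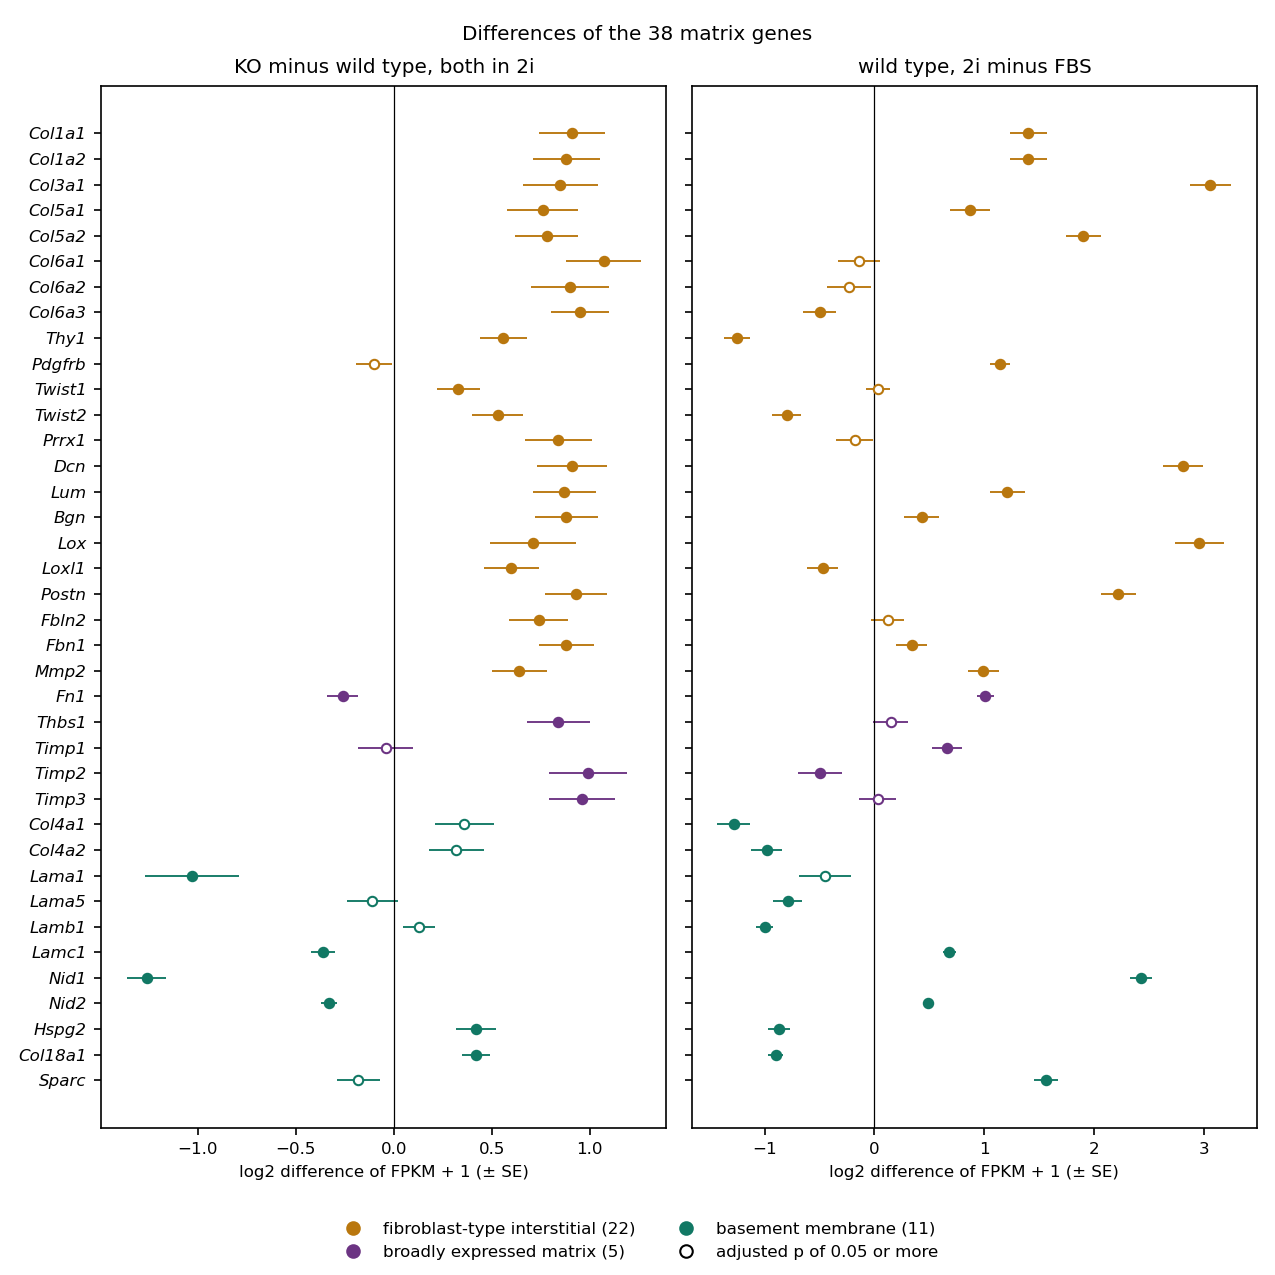
Log2 difference of FPKM + 1 with its standard error for each of the 38 matrix genes, as KO minus wild type in 2i (left) and wild type in 2i minus wild type in FBS (right), coloured by list; open circles did not pass an adjusted p of 0.05. On the left 21 of 22 interstitial genes lie to the right of 0, and on the right both lists spread to either side.

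Fibrillar collagens are the rope-like backbone of interstitial tissue, and the genes of collagens I and III were, with Bgn, the most abundant interstitial members in 2i. Col1a1 (mm9, chromosome 11, 94797584 to 94813170), a chain of collagen I, stood at 103, 118, 135 and 167 FPKM in KO libraries 1 to 4, at 51.9, 61.9, 78.95 and 85.1 in wild type in 2i and at 31.03, 22.6, 26 and 21.9 in wild type in FBS. Every KO library lay above every wild-type library in 2i, and those above every FBS library (KO minus wild type: log2 difference 0.91, SE 0.17, adjusted p = 0.00108). Col1a2, the partner chain, whose promoter is shown above, had 75.7, 86.9, 101 and 129 FPKM in KO, 40.4, 48.2, 57.04 and 64.4 in wild type in 2i and 22.2, 18.5, 19.8 and 15.9 in FBS. It followed the same order of groups without overlap (KO minus wild type: log2 difference 0.88, SE 0.17, adjusted p = 0.00106). Col3a1, the collagen of pliable tissue, had 72.3, 81.1, 97.5 and 125 FPKM in KO, 38.3, 44.01, 56.8 and 67.9 in wild type in 2i and 6.25, 4.58, 5.65 and 4.36 in FBS. The gap between the media was much wider for Col3a1 than for collagen I, and KO was again above wild type (log2 difference 0.85, SE 0.19, adjusted p = 0.00298).

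The chains of collagen V, which seeds collagen I fibrils, were less abundant and moved alike. Col5a1 had 14.96, 16.1, 18.9 and 25.5 FPKM in KO, 8.15, 8.75, 12.9 and 13.2 in wild type in 2i and 6.73, 4.86, 5.29 and 4.62 in FBS. Col5a2 had 20.8, 23.2, 26.2 and 33.4 FPKM in KO, 11.5, 11.9, 16.8 and 18.6 in wild type in 2i and 3.87, 2.91, 2.99 and 2.81 in FBS. The 3 groups did not overlap for either gene, and the KO minus wild type log2 differences were 0.76 ± 0.18 for Col5a1 and 0.78 ± 0.16 for Col5a2 (± SE). Collagen VI, which forms beaded filaments around cells, included the interstitial member with the largest log2 difference in KO, Col6a1. Col6a1 stood at 11.9, 15.6, 16.5 and 22.7 FPKM in KO, 5.37, 6.78, 8.04 and 9.28 in wild type in 2i and 9.32, 8.47, 9.25 and 5.74 in FBS (KO minus wild type: log2 difference 1.07, SE 0.19, adjusted p = 0.00082). The KO libraries lay above both wild-type groups, which overlapped each other. Col6a2 averaged 8.75 ± 2.35 FPKM in KO, 4.204 ± 1.12 in wild type in 2i and 5.09 ± 1.16 in FBS, and Col6a3 3.47 ± 0.958, 1.3 ± 0.318 and 2.25 ± 0.532; both rose in KO, by log2 differences of 0.90 and 0.95.

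Small leucine-rich proteoglycans, which coat collagen fibrils, were higher in KO in all 3 cases. Dcn (decorin) stood at 13.1, 18.1, 21.5 and 25.5 FPKM in KO, 7.302, 8.99, 10.2 and 12.9 in wild type in 2i and 0.513, 0.413, 0.442 and 0.723 in FBS (KO minus wild type: log2 difference 0.91, SE 0.18, adjusted p = 0.0016). KO library 1 was the only KO library close to the highest wild-type one, and the FBS libraries were all under 1 FPKM. Bgn (biglycan) stood at 98.4, 121, 129 and 171 FPKM in KO, 54.7, 61.6, 74.8 and 88.5 in wild type in 2i and 56.6, 50.7, 52.1 and 44.3 in FBS (KO minus wild type: log2 difference 0.88, SE 0.16, adjusted p = 0.000985). Its 2 wild-type groups overlapped, unlike those of Dcn. Lum (lumican) was low, at 4.03 ± 1.201 FPKM in KO, 1.72 ± 0.487 in wild type in 2i and 0.167 ± 0.0732 in FBS, and rose in KO by a log2 difference of 0.87.

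Lox, the lysyl oxidase that cross-links collagen and elastin, stood at 42.8, 47.5, 61.5 and 75.99 FPKM in KO, 26.1, 26.04, 40.2 and 45.7 in wild type in 2i and 3.88, 2.62, 4.67 and 2.79 in FBS. KO and wild type in 2i overlapped for Lox (log2 difference 0.71, SE 0.22, adjusted p = 0.0188), and the call was lost without KO library 4, wild-type library 1 or wild-type library 2 (adjusted p = 0.0587, 0.0587 and 0.0563). Its relative Loxl1 averaged 4.43 ± 1.201 FPKM in KO, 2.56 ± 0.531 in wild type in 2i and 3.904 ± 0.427 in FBS, and rose in KO by a log2 difference of 0.60. Postn (periostin), a secreted adaptor that binds collagen, stood at 20.9, 26.4, 30.8 and 38.6 FPKM in KO, 11.4, 13.9, 14.99 and 18.4 in wild type in 2i and 2.398, 1.897, 2.44 and 2.54 in FBS (KO minus wild type: log2 difference 0.93, SE 0.16, adjusted p = 0.000719). The 3 groups did not overlap. Fbln2 (fibulin 2), an elastic fibre glycoprotein, stood at 28.5, 32.4, 36.8 and 46.7 FPKM in KO, 17.6, 17.6, 23.9 and 25.98 in wild type in 2i and 21.8, 17.3, 19.1 and 19.1 in FBS. Its KO libraries were above both wild-type groups, which overlapped (KO minus wild type: log2 difference 0.74, SE 0.15, adjusted p = 0.00185). Fbn1, the main fibrillin of microfibrils, averaged 4.65 ± 1.06 FPKM in KO, 2.06 ± 0.406 in wild type in 2i and 1.41 ± 0.302 in FBS, and rose by a log2 difference of 0.88. Mmp2, a gelatinase that cuts collagen, stood at 21.6, 25.6, 28.2 and 36.2 FPKM in KO, 15.8, 16.9, 17.7 and 18.9 in wild type in 2i and 9.403, 6.78, 9.68 and 7.22 in FBS (KO minus wild type: log2 difference 0.64, SE 0.14, adjusted p = 0.00284). The 3 groups did not overlap for Mmp2.

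Mesenchymal surface and transcription factor genes were low in all 3 groups. Prrx1, a homeobox factor of limb mesenchyme, averaged 4.68 ± 1.17 FPKM in KO, 2.16 ± 0.572 in wild type in 2i and 2.58 ± 0.655 in FBS. Twist1 and Twist2, basic helix-loop-helix factors of mesenchyme, averaged 3.78 ± 0.258 and 1.31 ± 0.395 FPKM in KO, 2.83 ± 0.626 and 0.592 ± 0.202 in wild type in 2i, and 2.72 ± 0.339 and 1.77 ± 0.261 in FBS. Thy1, a surface glycoprotein of fibroblasts and other cells, averaged 4.18 ± 0.819 FPKM in KO, 2.51 ± 0.496 in wild type in 2i and 7.32 ± 0.671 in FBS. In KO these 4 rose by log2 differences of 0.84, 0.33, 0.53 and 0.56. The call of Twist1 (adjusted p = 0.0264) was lost without KO library 4, wild-type library 1 or wild-type library 2 (adjusted p = 0.071, 0.0735 and 0.0585). Pdgfrb, a receptor for platelet-derived growth factor, was the only interstitial member that did not pass, at 3.497 ± 0.606 FPKM in KO, 3.79 ± 0.184 in wild type in 2i and 1.17 ± 0.129 in FBS (KO minus wild type: log2 difference -0.10, SE 0.09, adjusted p = 0.379).

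Among the broadly expressed genes, Fn1 (fibronectin), a fibrillar glycoprotein that binds integrins, stood at 203, 199.8, 193 and 224 FPKM in KO, 261, 268, 218 and 235 in wild type in 2i and 120.1, 130.3, 130.2 and 105 in FBS. It fell in KO (log2 difference -0.26, SE 0.08, adjusted p = 0.0198), although KO library 4 lay above wild-type library 3. That call was lost without KO library 3, wild-type library 1 or wild-type library 2 (adjusted p = 0.0573, 0.059 and 0.0592). Thbs1 (thrombospondin 1) stood at 46.1, 51.1, 57.4 and 74.6 FPKM in KO, 26.3, 25.3, 35.5 and 39.9 in wild type in 2i and 31.8, 28.3, 28.1 and 24.3 in FBS, and rose in KO (log2 difference 0.84, SE 0.16, adjusted p = 0.00121). The KO libraries of Thbs1 lay above all 8 others. The tissue inhibitors of metalloproteinases did not move together. Timp2 stood at 18.3, 21.8, 26.99 and 34.6 FPKM in KO, 9.21, 9.78, 14.3 and 15.9 in wild type in 2i and 20.2, 17.9, 13.96 and 17.9 in FBS, and rose in KO (log2 difference 0.99, SE 0.20, adjusted p = 0.00164). Timp3, which stays bound to the matrix, stood at 14.1, 16.8, 19.6 and 23.4 FPKM in KO, 7.17, 6.82, 10.3 and 11.9 in wild type in 2i and 8.96, 8.06, 8.63 and 8.96 in FBS, and rose as well (log2 difference 0.96, SE 0.17, adjusted p = 0.000584). Timp1 stood at 36.5, 36.8, 38.5 and 49.7 FPKM in KO, 41.04, 51.7, 32.1 and 42.8 in wild type in 2i and 30.2, 23.1, 24.1 and 26.4 in FBS. KO and wild type in 2i overlapped for Timp1 (log2 difference -0.04, SE 0.14, adjusted p = 0.814), whereas they did not for Timp2 and Timp3.

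**Figure D2:**
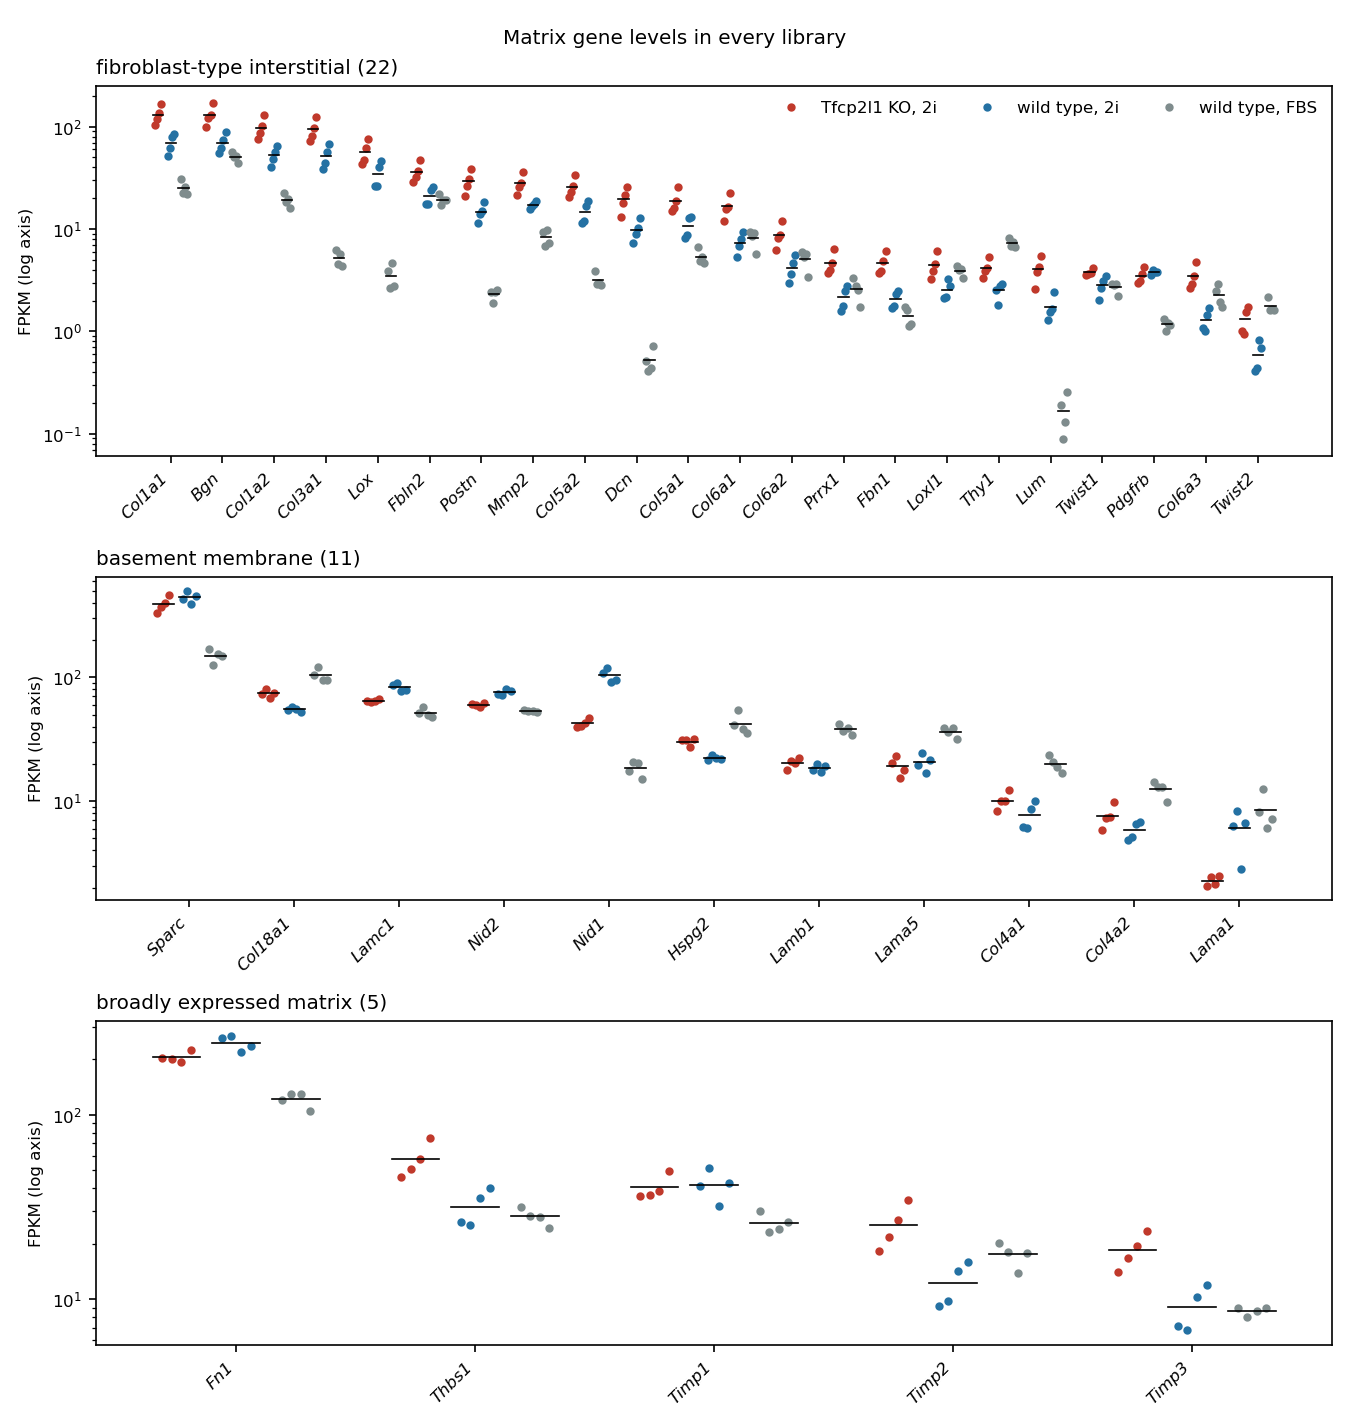
FPKM on a log axis of each matrix gene in the 4 KO libraries in 2i (red), 4 wild-type libraries in 2i (blue) and 4 wild-type libraries in FBS (grey), 1 point per library, with a black line at the group mean. KO points lie above the wild-type points in 2i without overlap for 20 of 22 interstitial and 2 of 11 basement membrane genes, where 23.7% of all genes tested did. They lie below without overlap for 0 interstitial and 4 basement membrane genes, where 20.4% did.

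In the basement membrane the nidogens, which link laminin to collagen IV, fell in KO. Nid1 (mm9, chromosome 13, 13529869 to 13604542; promoter shown above) stood at 39.6, 40.5, 42.9 and 46.8 FPKM in KO, 108, 118, 91.9 and 95.8 in wild type in 2i and 17.5, 20.8, 20.1 and 15.1 in FBS. KO lay below every wild-type library in 2i and above every FBS library (KO minus wild type: log2 difference -1.26, SE 0.10, adjusted p = 1.54e-06). Nid2 stood at 61.01, 59.8, 57.4 and 62.1 FPKM in KO, 73.1, 72, 80.1 and 77.9 in wild type in 2i and 54.7, 53.5, 52.97 and 52.8 in FBS. The order of groups was the same for Nid2 and the gaps were smaller (KO minus wild type: log2 difference -0.33, SE 0.04, adjusted p = 6.22e-05). The ratio of Nid1 to Nid2 within a library was 0.649 to 0.754 in KO, 1.15 to 1.64 in wild type in 2i and 0.286 to 0.388 in FBS.

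Laminins are built from an alpha, a beta and a gamma chain, and their genes did not move together. Lamc1, the common gamma chain, stood at 64.3, 62.7, 64.7 and 66.6 FPKM in KO, 86.5, 89.9, 77.8 and 78.9 in wild type in 2i and 51.4, 57.2, 49.95 and 47.5 in FBS, and fell in KO without overlap (log2 difference -0.36, SE 0.06, adjusted p = 0.000459). Lama1, an alpha chain of early embryonic laminin, averaged 2.28 ± 0.212 FPKM in KO, 6.04 ± 2.32 in wild type in 2i and 8.44 ± 2.83 in FBS, and fell in KO (log2 difference -1.03, SE 0.24, adjusted p = 0.0045). Its wild-type libraries in 2i ranged from 2.82 FPKM in library 3 to 8.34 in library 2, all above the KO range of 2.07 to 2.50. Lamb1, the beta chain that pairs with Lamc1, stood at 17.7, 21.2, 20.4 and 22.5 FPKM in KO, 17.9, 20.1, 17.1 and 19.3 in wild type in 2i and 42.2, 36.9, 39.2 and 34.5 in FBS. KO and wild type in 2i overlapped for Lamb1 (log2 difference 0.13, SE 0.08, adjusted p = 0.214), and both lay below FBS. Lama5 stood at 20.4, 23.1, 15.3 and 17.8 FPKM in KO, 19.6, 24.6, 16.8 and 21.6 in wild type in 2i and 38.9, 35.98, 38.6 and 31.8 in FBS, with the same pattern (KO minus wild type: log2 difference -0.11, SE 0.13, adjusted p = 0.513). Lamb1 had 0.275 to 0.338 of the level of Lamc1 in KO, 0.206 to 0.245 in wild type in 2i and 0.645 to 0.822 in FBS.

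Collagen IV, the network-forming collagen of basement membranes, is encoded in part by the neighbours Col4a1 and Col4a2. Col4a1 stood at 8.25, 9.95, 9.98 and 12.2 FPKM in KO, 6.195, 6.04, 8.62 and 9.98 in wild type in 2i and 23.5, 20.6, 18.8 and 16.7 in FBS. Col4a2 stood at 5.84, 7.26, 7.43 and 9.84 FPKM in KO, 4.82, 5.17, 6.55 and 6.76 in wild type in 2i and 14.2, 13.1, 12.9 and 9.82 in FBS. For both genes KO and wild type in 2i overlapped and neither passed (KO minus wild type: log2 differences 0.36 ± 0.15 and 0.32 ± 0.14, ± SE; adjusted p = 0.0676 and 0.086). Both passed without KO library 1 (adjusted p = 0.0433 and 0.0337), and Col4a1 also without wild-type library 4 (adjusted p = 0.019). Of the basement membrane proteoglycans, both among the 38 rose in KO. Col18a1, a collagen that carries heparan sulfate and yields endostatin, stood at 73.4, 80.98, 67.7 and 74.5 FPKM in KO, 54.5, 57.7, 55.2 and 52.8 in wild type in 2i and 105, 120.4, 95.5 and 94.6 in FBS (KO minus wild type: log2 difference 0.42, SE 0.07, adjusted p = 0.000668). Hspg2 (perlecan) stood at 31.4, 30.96, 27.1 and 31.6 FPKM in KO, 21.6, 23.5, 22.4 and 22.1 in wild type in 2i and 41.02, 54.1, 38.4 and 35.4 in FBS (KO minus wild type: log2 difference 0.42, SE 0.10, adjusted p = 0.0055). For both, KO lay between the wild-type groups, with FBS highest. Sparc, a secreted collagen-binding glycoprotein, was the most abundant of the 38 genes at 329.9, 370.1, 401 and 464 FPKM in KO, 428, 494, 389 and 456 in wild type in 2i and 168, 126, 154 and 149 in FBS. Its KO and wild-type libraries in 2i overlapped (log2 difference -0.18, SE 0.11, adjusted p = 0.198).

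The KO libraries lay above the wild-type libraries in 2i without overlap for 20 of 22 interstitial genes, where 23.7% of all genes tested did so, and below them for 0, where 20.4% did. Among the basement membrane genes 2 of 11 lay above and 4 below. The FPKM of the 22 interstitial genes summed to 726 ± 169 in KO, 398 ± 86.1 in wild type in 2i and 180 ± 21.9 in wild type in FBS (SD, n = 4 each). The 11 basement membrane genes summed to 722 ± 64.8, 841 ± 62.5 and 534 ± 30.8 FPKM in the same groups, and without Sparc to 331 ± 14.3, 399 ± 19.5 and 385 ± 34.0. With Sparc included, the interstitial sum was 0.852 to 1.18 of the basement membrane sum in KO. In wild type it was 0.372 to 0.587 of it in 2i and 0.309 to 0.366 in FBS. Without Sparc the interstitial sum was 1.72 to 2.75 times the basement membrane sum in KO. It was then 0.771 to 1.27 times in wild type in 2i and 0.401 to 0.521 times in FBS, so the comparison of the sums depends on Sparc.

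The second comparison set wild type in 2i against wild type in FBS; it shares the wild-type libraries in 2i with the first, so the results of the 2 comparisons are not independent. Of the 22 interstitial genes 13 rose in 2i, 4 fell and 5 did not pass, where 72.4% of all genes tested were called, 37.1% higher and 35.3% lower. Their median log2 difference was 0.65, against 0.01 over all genes. The rises were uneven. On the ratio of means, Dcn was 18.8-fold, Lum 10.3-fold, Col3a1 9.94-fold and Lox 9.89-fold higher in 2i, while Col1a1 and Col1a2 were 2.74-fold and 2.75-fold higher. The log2 differences were 2.81 ± 0.18 for Dcn, 1.21 ± 0.16 for Lum, 3.06 ± 0.19 for Col3a1, 2.96 ± 0.22 for Lox, 1.40 ± 0.17 for Col1a1 and 1.40 ± 0.17 for Col1a2 (± SE; limma adjusted p from 1.93e-08 to 1.87e-05). Postn, at 2.22, and Col5a2, at 1.90, lay within that range.

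The members that fell in 2i were Thy1 (log2 difference -1.25), Twist2 (-0.80), Col6a3 (-0.50) and Loxl1 (-0.47). Those that did not pass were Col6a1, Col6a2, Prrx1, Twist1 and Fbln2, with log2 differences from -0.23 to 0.12. Pdgfrb, which had not passed in KO, rose (1.14). Fbn1 and Bgn rose by little (0.34 and 0.43; adjusted p = 0.0383 and 0.0312). With no filter on low values the calls of Bgn and Fbn1 were lost (adjusted p = 0.0546 and 0.0642), as with array weights (adjusted p = 0.254 and 0.256). The call of Bgn was also lost when wild-type library 3 or 4 in 2i or FBS library 2 or 4 was left out (adjusted p from 0.0561 to 0.101), and that of Fbn1 without library 3 or 4 of either group (adjusted p from 0.0867 to 0.109).

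Of the 11 basement membrane genes, 4 rose in 2i, 6 fell and Lama1 did not pass, with a median log2 difference of -0.79. Of all genes tested 37.1% rose and 35.3% fell, so rises were about as frequent as over all genes. The nidogens, Lamc1 and Sparc rose: Nid1 by a log2 difference of 2.43 (SE 0.10, adjusted p = 6.33e-10), Sparc by 1.56, Lamc1 by 0.68 and Nid2 by 0.49. Collagen IV, Lamb1, Lama5, Col18a1 and Hspg2 fell, from -1.28 for Col4a1 to -0.79 for Lama5. The log2 difference of Lama1 was -0.45 (adjusted p = 0.112), and it passed without wild-type library 2 in 2i (adjusted p = 0.0402). Among the broadly expressed genes Fn1 (1.01) and Timp1 (0.66) rose and Timp2 fell (-0.50). The call of Timp2 was lost with no filter (adjusted p = 0.0636), and without wild-type library 1 or 2 in 2i or FBS library 1, 2 or 4 (adjusted p from 0.0721 to 0.114). In this comparison 11 of 22 interstitial genes lay above FBS without overlap and 4 below, against 32.0% and 30.5% of all genes tested.

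The interstitial genes also varied together inside each group. KO library 4 held the highest value of the 4 KO libraries for 22 of 22 interstitial genes, and KO library 1 the lowest for 21. The same held for 9 and 6 of the 11 basement membrane genes, and for 5 and 4 of the 5 broadly expressed genes. Of all genes tested, 28.8% and 25.1% did so. In wild type in 2i, library 4 was highest for 19 and library 1 lowest for 18, against 25.7% and 19.5% of all genes tested. In FBS, library 1 was highest for 15 and library 4 lowest for 14, against 24.6% and 35.9%. For the basement membrane genes these counts were 2 and 2 in wild type in 2i, and 6 and 9 in FBS. The highest KO value was a median of 1.72 times the lowest for interstitial genes, 1.20 times for basement membrane genes and 1.14 times for all genes tested. In wild type in 2i these were 1.63, 1.27 and 1.22 times, and in FBS 1.42, 1.33 and 1.22 times.

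**Figure D3:**
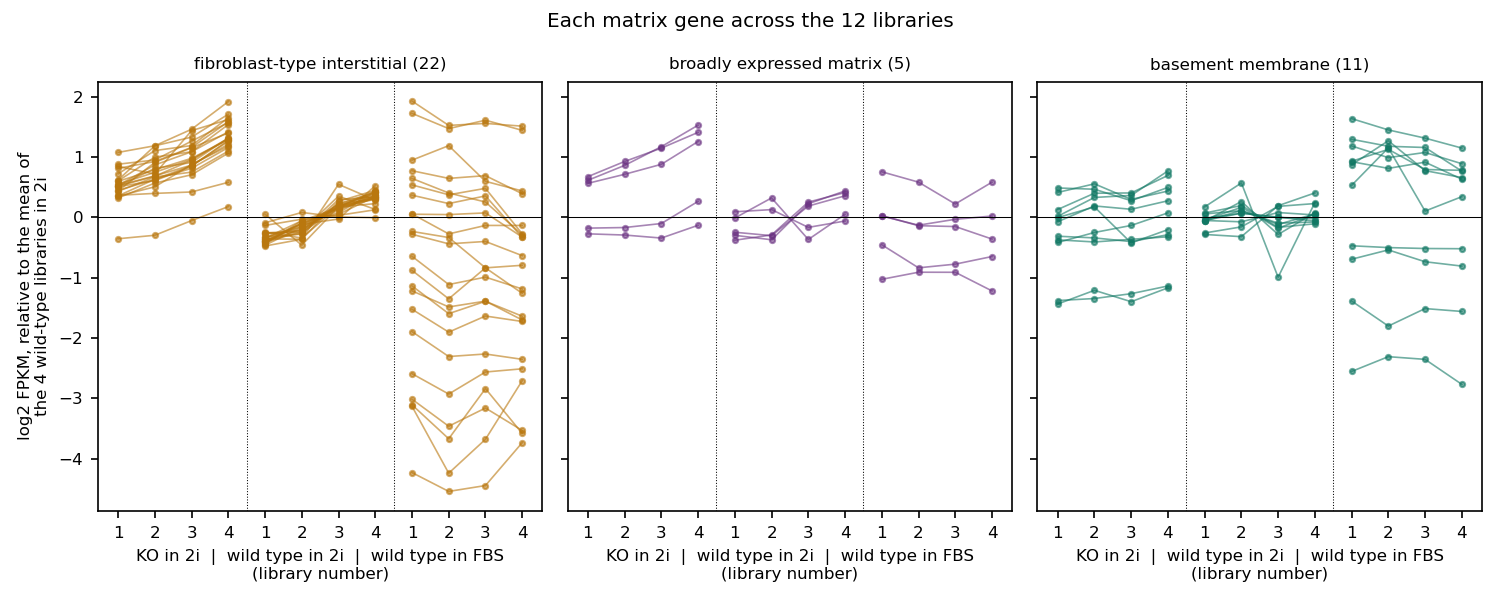
Log2 FPKM of each matrix gene in the 12 libraries, relative to the mean of the 4 wild-type libraries in 2i, with 1 line per gene and group; the library numbers carry no order. KO library 4 is highest of its group for all 22 interstitial lines and for 9 of the 11 basement membrane lines, which lie flatter within KO. Of all genes tested it was highest for 28.8%.

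Ordered from the lowest to the highest library, 20 of the 21 interstitial genes other than Col1a1 had exactly the order of Col1a1 in KO, 14 in wild type in 2i and 10 in FBS. Over all genes tested the shares were 8.23%, 5.05% and 6.38%. Of the 11 basement membrane genes 4, 1 and 2 had it. Col1a1 is a reference of convenience, and the points share library and depth, so these counts are a description. The estimated depth was lowest in KO library 4 (11500000 fragments) among the KO libraries, and wild-type libraries 4 and 1 in 2i had 11900000 and 12100000. In FBS it went the other way: library 1, most often highest, had the largest depth (15400000), and library 4, most often lowest, the smallest (12500000). The part of depth in the order of the libraries was not tested.

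The level of each gene was then taken relative to Col1a1 in the same library. Col1a2 held 0.733 to 0.771 of the Col1a1 level in KO, 0.722 to 0.779 in wild type in 2i and 0.717 to 0.819 in FBS, nearly the same in all 12 libraries. Col3a1 held 0.688 to 0.749 in KO, 0.711 to 0.797 in wild type in 2i and 0.199 to 0.217 in FBS. Between KO and wild type in 2i, 18 of the 21 other interstitial genes kept a mean ratio to Col1a1 within 0.8 to 1.25 times that of wild type, bounds that were set after the values were seen. Of all genes tested 7.2% lay within them and 90.5% below, with a median of 0.533 times, because Col1a1 itself was 1.88-fold higher in KO. A gene that rose about as much as Col1a1 falls within the bounds, so the 18 of 21 largely restate the rises given above. The 3 outside were Pdgfrb (0.476 times), Twist1 (0.726 times) and Col6a3 (1.41 times). The 11 basement membrane genes lay below the bounds with most genes, from 0.193 times for Lama1 to 0.715 times for Hspg2, which restates their differences above on another scale. Fn1 and Timp1 stood at 0.432 and 0.493 times, and Thbs1, Timp2 and Timp3 at 0.957 to 1.09 times. Between the media the interstitial proportions differed: 2 of 21 kept a ratio within the bounds, where 4.83% of all genes did, and the ratios ran from 0.120 times for Twist2 to 6.68 times for Dcn.

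**Figure D4:**
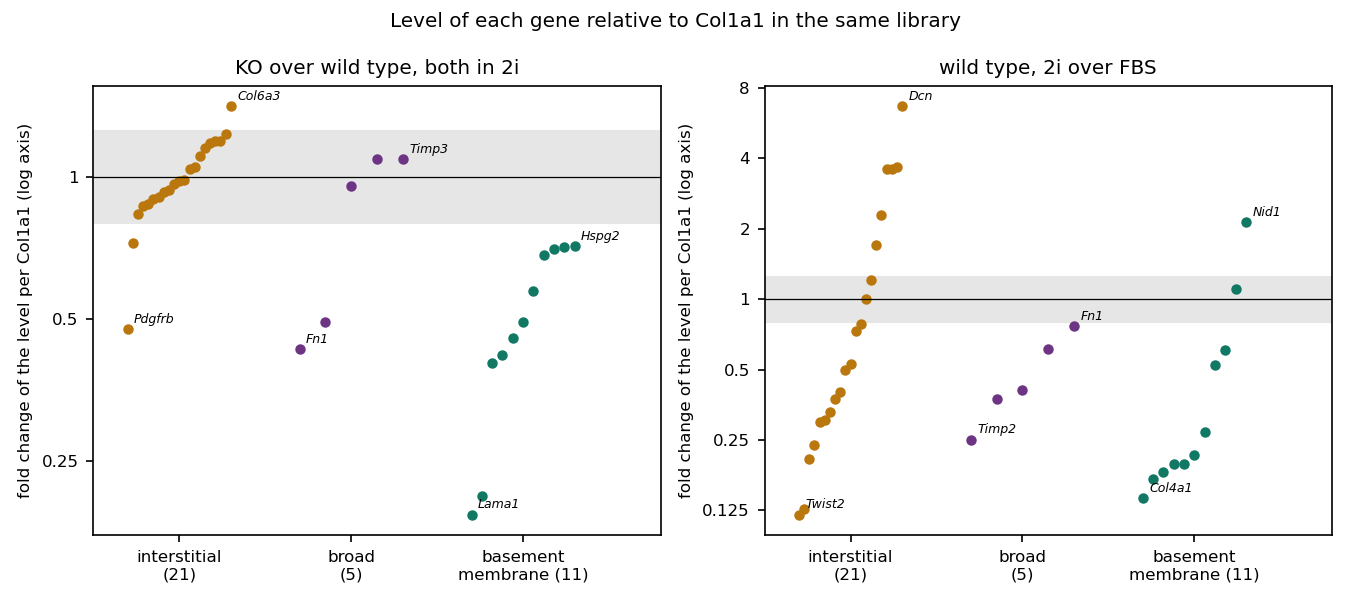
Fold change, on a log axis, of the mean level per Col1a1 in the same library, as KO over wild type in 2i (left) and wild type in 2i over wild type in FBS (right), 1 point per gene sorted within its list; the grey band spans 0.8 to 1.25. On the left 18 of 21 interstitial points lie in the band, where 7.2% of all genes tested did, and on the right 2 of 21.

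Markers of fibroblasts that are not among the 38 genes moved with the interstitial genes in KO. Of 26 such genes 25 were in the table and 20 were tested; 16 rose in KO, 1 fell and 3 did not pass, where 24.0% of all genes tested rose and 21.4% fell, and their median log2 difference was 0.53. Their summed level was 217 to 333 FPKM in KO, 165 to 193 in wild type in 2i and 159 to 200 in FBS. The FBS sum includes S100a4, which was far higher in FBS than in 2i, as given at the end. Examples are Fstl1, a secreted follistatin-like protein, at 74.7 ± 6.51 FPKM in KO and 50.8 ± 4.22 in wild type in 2i, and Serpinf1, a secreted serpin, at 26.8 ± 5.19 and 13.5 ± 3.18 FPKM. Mfap5 and Cthrc1 also rose (log2 differences 0.58 and 0.68), and Pdgfra, the receptor that marks many fibroblasts, was near the filter at 1.14 ± 0.241 and 0.773 ± 0.121 FPKM. Tcf21 and Meox1, which were not picked by the rule for naming genes, were near 0. Tcf21 averaged 0.0720 FPKM in KO and 0.0268 in wild type in 2i, and Meox1 0.119 and 0.0261. They do not stand for the list: of the 25 markers, 0 were under 0.1 FPKM in all KO libraries and 1 in all wild-type libraries in 2i. Between 2i and FBS in wild type, 11 markers were higher, 6 lower and 3 did not pass, where 37.1% of all genes tested were higher and 35.3% lower.

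The mean log2 level of the 20 markers was 2.60, 2.74, 2.93 and 3.14 in KO libraries 1 to 4, 2.14, 2.18, 2.42 and 2.49 in wild-type libraries 1 to 4 in 2i, and 2.23, 2.26, 2.05 and 2.12 in FBS. S100a4 is among these 20 and raised the mean in FBS. Libraries 1 to 4 stood in the same order as for Col1a1 in KO and in wild type in 2i, and KO did not overlap wild type in 2i. With this level added to the model as a covariate, 0 of 22 interstitial genes passed in KO. Their median log2 difference was 0.11 with a median SE of 0.16, the same SE as without it. Over all genes tested the median SE was 0.13, against 0.08 without it. Since 16 of the 20 markers themselves rose in KO, smaller KO differences of genes that vary with them are built into such a fit. No conclusion on the source of the RNA is drawn from it. In that fit 7.32% of all genes rose and 8.52% fell. Nid1 (log2 difference -1.28, adjusted p = 0.001) and Nid2 (-0.41, adjusted p = 0.00329) still fell in it, and 0 basement membrane genes passed as higher. The other 4 basement membrane genes called without it kept log2 differences near those given above while their SE grew: 0.41 (SE 0.136, adjusted p = 0.0613) for Col18a1, 0.34 (SE 0.186, adjusted p = 0.244) for Hspg2, -0.35 (SE 0.11, adjusted p = 0.0505) for Lamc1 and -1.04 (SE 0.447, adjusted p = 0.138) for Lama1. Because the marker level does not overlap between KO and wild type in 2i, it and the genotype cannot be told apart by this fit alone. In bulk samples, moreover, fewer cells of a type and less RNA per cell cannot be told apart. Between the media the covariate left 13 interstitial genes higher and 7 lower, and 4 basement membrane genes higher and 6 lower, where 36.3% of all genes rose and 34.8% fell.

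Markers of other cell types that make matrix were mostly low. For each list in this paragraph, the shares over all genes tested were again 24.0% higher and 21.4% lower in KO. Most of these counts rest on few tested genes. Of 12 parietal endoderm genes, the embryonic cells that secrete thick basement membrane, 7 were tested, 4 rose in KO and 0 fell. Their summed level was 27.1 to 35.8 FPKM in KO and 24.3 to 38.9 in wild type in 2i. The factors Sox7 and Foxa2, picked after their values were seen, averaged under 0.2 FPKM in both groups. They do not stand for the list, of which 0 of 12 genes were under 0.1 FPKM in all libraries of a group. Gata6, Gata4, Sox17 and Dab2 are also on the list, and their values are not given here. Thbd, at 5.16 ± 1.24 FPKM in KO and 2.66 ± 0.877 in wild type in 2i, had the smallest adjusted p. Of 9 visceral endoderm genes 2 were tested, 1 rose and 0 fell. They summed to 1.81 to 2.45 FPKM in KO, 1.69 to 3.43 in wild type in 2i and 5.67 to 6.25 in FBS. Afp and Ttr were at or near 0 in all groups. Of 7 smooth muscle genes 5 were tested, 4 rose in KO and 0 fell, among them Acta2, the actin of smooth muscle and activated fibroblasts, at 6.97 ± 1.56 FPKM in KO and 3.2 ± 1.07 in wild type in 2i. The smooth muscle genes summed to 31.4 to 38.2 FPKM in KO, 18.9 to 25.1 in wild type in 2i and 54.3 to 89.6 in FBS. Of 7 endothelial genes 3 were tested, 1 rose and 2 fell. They summed to 20.6 to 24.7 FPKM in KO, 24.5 to 30.3 in wild type in 2i and 12.4 to 13.2 in FBS. The cadherin Cdh5 was near 0, and 2 of the 7 were under 0.1 FPKM in all KO libraries. Of 6 mesoderm genes 2 were tested: T rose and Eomes fell. Of the 10 ESC genes 1 rose and 5 fell in KO, with Nanog at 389.7 ± 14.1 FPKM in KO and 578 ± 23.7 in wild type in 2i. The part of these cell types in the matrix results was not tested.

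Other genes of the interstitial matrix, a list outside the 38, were mostly higher in KO. For this list and the 4 that follow, the shares over all genes tested were again 24.0% higher and 21.4% lower in KO, and 37.1% higher and 35.3% lower in 2i against FBS. Of 33 genes 24 were tested, 19 rose, 0 fell and 5 did not pass, with a median log2 difference of 0.55. Of the 33 genes 8 are also on the fibroblast marker list. The proteoglycan Vcan (versican) averaged 8.16 ± 0.434 FPKM in KO and 4.61 ± 0.203 in wild type in 2i (log2 difference 0.71, SE 0.08, adjusted p = 3.83e-05). The microfibril protein Mfap2 (4.05 ± 0.722 and 1.55 ± 0.298 FPKM), the adaptor Matn2 (3.21 ± 0.717 and 1.53 ± 0.318) and Tnc, tenascin C (8.16 ± 1.95 and 3.93 ± 1.08), also rose. Fbln1 was the most abundant that did not pass, at 31.3 ± 2.497 FPKM in KO and 28.4 ± 0.927 in wild type in 2i. In 2i against FBS 10 of the 24 rose and 7 fell.

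Of 24 other basement membrane genes 11 were tested, 4 rose in KO, 2 fell and 5 did not pass, with a median of 0.13. Tinagl1, a matricellular protein of basement membranes, averaged 4.41 ± 0.394 FPKM in KO and 8.24 ± 1.19 in wild type in 2i, and fell. Lama4, a laminin chain of vessels and muscle, averaged 4.25 ± 1.1 FPKM in KO and 2.098 ± 0.428 in wild type in 2i, and Col4a5 2.24 ± 0.483 and 1.23 ± 0.187; both rose. Agrn (agrin), the most abundant of the list, did not pass, at 54.3 ± 3.35 and 49.7 ± 6.99 FPKM. In 2i against FBS 6 of the 11 rose and 3 fell.

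Of 27 genes that fold and modify collagen inside the cell 22 were tested; 7 rose in KO, 6 fell and 9 did not pass, with a median of 0.00, close to the 24.0% and 21.4% of all genes tested. Serpinh1, the collagen chaperone of the endoplasmic reticulum, rose to 196 ± 16.96 FPKM in KO, against 82.3 ± 10.5 in wild type in 2i (log2 difference 1.25, SE 0.15, adjusted p = 4.13e-05). Colgalt1, a collagen galactosyltransferase, fell to 45.8 ± 2.12 FPKM, against 74.2 ± 6.39 in wild type in 2i (log2 difference -0.68, SE 0.06, adjusted p = 6.42e-06). P3h1, a prolyl hydroxylase, and its partner Ppib (cyclophilin B) fell to 15.1 ± 1.63 and 186 ± 4.83 FPKM in KO, against 23.01 ± 0.615 and 232 ± 8.98 in wild type in 2i. Crtap, the other member of that complex, did not pass (48.2 ± 2.91 FPKM in KO and 54.2 ± 5.82 in wild type in 2i). In 2i against FBS 10 of the 22 rose and 6 fell.

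Of the receptors for matrix, 6 of 20 tested were higher in KO, 6 lower and 8 did not pass (median -0.04), again near the 24.0% and 21.4% of all genes tested. The 4 with the smallest adjusted p all fell. Bcam, a receptor for laminin, averaged 49.9 ± 7.27 FPKM in KO and 144 ± 31.7 in wild type in 2i (log2 difference -1.49, SE 0.15, adjusted p = 1.15e-05). Itga5, the alpha chain of the fibronectin receptor, averaged 13.6 ± 0.487 and 25.9 ± 3.46 FPKM (log2 difference -0.88, SE 0.08, adjusted p = 6.59e-06). Itgb4 and Itga6, integrin chains that bind laminin, averaged 1.902 ± 0.0977 and 19.96 ± 1.03 FPKM in KO and 3.46 ± 0.499 and 27.8 ± 3.84 in wild type in 2i. Sdc4 (syndecan 4), the most abundant receptor that did not pass, averaged 70.6 ± 7.46 FPKM in KO and 71.6 ± 13.4 in wild type in 2i. In 2i against FBS 7 of the 20 rose and 8 fell.

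Matrix proteases and their inhibitors outside the 38 were mostly higher in KO, with 11 of 17 tested higher, 2 lower and 4 that did not pass (median log2 difference 0.52), where 24.0% of all genes tested were higher and 21.4% lower. Htra1, a secreted serine protease, fell to 12.02 ± 1.22 FPKM in KO, against 29.3 ± 3.25 in wild type in 2i (log2 difference -1.22, SE 0.13, adjusted p = 1.4e-05). Mmp14, the membrane protease that activates Mmp2, rose to 22.7 ± 4.298 FPKM, against 11.8 ± 2.51 in wild type in 2i (log2 difference 0.89, SE 0.15, adjusted p = 0.000495). Adamts1, which cuts versican, averaged 6.55 ± 1.66 FPKM in KO and 2.92 ± 0.749 in wild type in 2i, and the gelatinase Mmp9 0.915 ± 0.142 and 0.256 ± 0.0689; both rose. Mmp11 did not pass (14.9 ± 1.14 FPKM in KO and 16.6 ± 1.21 in wild type in 2i). In 2i against FBS 7 of the 17 rose and 7 fell, near the 37.1% and 35.3% of all genes tested.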

How the data were processed

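The authors deposited FPKM for each RefSeq transcript in 1 table, together with lower and upper bounds and a quantification status, per the file headers. CASAVA 1.8.2 and Cufflinks (version not given) with the mouse build mm9 are named per the submitters' processing notes; the aligner is not given in the sources used here. RNA was taken up in Trizol and TruSeq libraries were made, per the labels' protocols.

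Entries were named from RefSeq tables (GRCm38.p6), which gave a symbol to 98.8% of 30761 entries, and summed per symbol. In all, 23 entries had a failed estimate, none of a member, and 7 genes they touched were left out. The 38 members had 54 entries, and 9 members had several. Coordinates of genes are mm9, 1-based; promoters are GRCm38.p6.

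Genes that reached 1 FPKM in 4 or more libraries were tested on log2(FPKM + 1) with limma 3.58.1 (R 4.3.3), with 1 mean per group over all 12 libraries, eBayes with an intensity trend, two-sided, and Benjamini-Hochberg adjustment over 12329 genes. FPKM are not counts, so no count test was used. The fit was tested on simulated data. Python 3.11.15, numpy 2.4.6, pandas 2.3.3 and matplotlib 3.10.9 were used.

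Depth was estimated from entries whose bounds are those of a single fragment (lower bound 0, upper bound 3 times the value within 0.001) and whose transcript is over 1500 bases long; it is an estimate, and no counting intervals were made from it. FPKM summed to 347772 to 358340 per library. Across chromosome 6, which holds Col1a2 and Fbln2, the median offset of a library from the gene means ranged from -0.165 to 0.211 on the log2 scale.

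The members, the 5 further matrix lists and the 7 cell type marker lists (fibroblasts, parietal and visceral endoderm, smooth muscle, endothelium, mesoderm and ESCs) were chosen with earlier results of these data known. All members were named, with every library's value where a group mean reached 10 FPKM and a comparison was called. From each further list the 4 genes with the smallest adjusted p in KO and the most abundant that did not pass were eligible to be named, of which 1 gene is not reported here; cell type genes described as at or near 0, Pou5f1, Sox2, Nanog, Pdgfra and Tfcp2l1 stand outside that rule or were chosen after their values were seen. Alternatives were other pseudocounts, filters and scalings, a fit to only the 8 libraries compared, a block for the replicate number, array weights, the highest entry per symbol, removal of the chromosome 6 offset, the fibroblast marker level as a covariate, and leaving out each library.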

Additional observations from a re-analysis of the deposited data

Results flagged for a closer look

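Of 114 sets of 4 libraries, 1 for each of the 38 genes in each group, 5 held a library far from the other 3 by Dixon's test at the 95% level, where chance flags about 1 in 20. Timp1 was high in KO library 4, at 49.7 FPKM against 36.5 to 38.5 in the other KO libraries. Hspg2 was low in KO library 3, at 27.1 FPKM against 31.0 to 31.6. In wild type in FBS, Col5a2 was high in library 1 (3.87 FPKM against 2.81 to 2.99), as was Twist2 (2.16 FPKM against 1.62 to 1.67), and Twist1 was low in library 4 (2.22 FPKM against 2.87 to 2.93).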

How the results depend on the processing

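The number of members called in both comparisons stayed within 1.5 times that reported under the other pseudocounts, no filter, the 3 scalings, the 8 libraries alone, the highest entry per symbol and the chromosome 6 correction, although with no filter Bgn, Fbn1 and Timp2 did not pass in 2i against FBS. With the fibroblast marker covariate 0 interstitial genes rose, 0 basement membrane genes rose and 2 fell in KO, 7 interstitial genes fell in 2i against FBS, and 1954 genes were called in KO in all; the basement membrane calls lost (Col18a1, Hspg2, Lamc1 and Lama1) had log2 differences of 0.41, 0.34, -0.35 and -1.04, near those reported, with larger SE. Array weights made 4 basement membrane genes higher in KO, with Col4a1 and Col4a2 added. A filter of 5 FPKM left 1 interstitial gene, Thy1, lower in 2i, because Twist2, Col6a3 and Loxl1 were filtered out. The 14 interstitial genes that passed this filter kept their results in both comparisons. Leaving out 1 library gave 4710 to 5922 genes called in KO and 8506 to 8966 in 2i against FBS; 19 to 21 interstitial genes higher and 0 lower in KO, with 2 to 4 basement membrane genes higher and 4 lower; and 11 to 13 interstitial genes higher and 4 lower in 2i, with 4 basement membrane genes higher and 6 to 7 lower. The replicate numbers were not taken as pairs, since not every same-number correlation was over 0.1 (0.055 to 0.258 between KO and wild type, 0.027 to 0.186 between media). As a hint from the data and not the design, libraries of 3 of the 4 numbers correlated best with their own number between KO and wild type, and of 2 of 4 between media; with the replicate block 5567 and 8899 genes were called, Lama1 passed and Fbn1 did not in 2i against FBS. Some log2 differences turned sign. Col5a1, Lox, Loxl1 and Twist1, called higher in KO, were near 0 with the covariate. The values with it were, in KO, Col4a1 at -0.29, Col4a2 at -0.29, Col5a1 at -0.04, Lama5 at 0.16, Lamb1 at -0.03, Lox at -0.09, Loxl1 at -0.03 and Twist1 at -0.01, and in 2i against FBS Fbln2 at -0.06, Thbs1 at -0.05, Timp3 at -0.16 and Twist1 at -0.06. Without wild-type library 2 in 2i, Timp1 stood at 0.06 in KO. In 2i against FBS, array weights gave Fbln2 -0.03, Thbs1 -0.02, Timp3 -0.11 and Twist1 -0.13; quantile scaling gave Timp3 -0.02 and Twist1 -0.02; the chromosome 6 correction gave Fbln2 -0.01; and leaving out 1 library gave Timp3 between -0.10 and 0.14 and Twist1 between -0.05 and 0.14. The cause was not tested. With the covariate Col1a1, Col3a1 and Dcn had KO log2 differences of 0.18, 0.04 and 0.13 (adjusted p = 0.54, 0.921 and 0.685). Nid1 and Nid2 kept their direction and their calls in both comparisons under all alternatives run. Values near or under 1 FPKM, such as those of Twist2 in wild type in 2i and Lum in FBS, are limited by the depth.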

Other observations

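Fn1 had 7 deposited RefSeq entries, and their shares differed between the media; these were picked after the values were seen and were not tested. Entry NM_010233 held 75.0, 73.9, 68.7 and 66.5% of the summed Fn1 level in KO libraries 1 to 4, 75.8, 76.8, 73.2 and 73.3% in wild type in 2i, and 50.0, 41.7, 48.1 and 45.7% in FBS. NM_001276410 held 13.4 to 20.1% in KO, 9.21 to 12.2% in wild type in 2i and 23.2 to 28.6% in FBS. NM_001276408 held 4.71 to 9.33%, 8.48 to 12.5% and 20.5 to 26.3% in the same groups. The 8 libraries in 2i did not overlap the FBS libraries for any of these 3 entries. The entries share most of their sequence, so their shares rest on how Cufflinks divided common fragments.

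Proportions between chains of one matrix family were also taken within each library. Col6a1 held 1.90 to 1.92 times the level of Col6a2 in KO, 1.68 to 1.85 times in wild type in 2i and 1.57 to 1.69 times in FBS. Col4a1 held 1.24 to 1.41 times the level of Col4a2 in KO, 1.17 to 1.48 times in wild type in 2i and 1.46 to 1.70 times in FBS. Of the alternative laminin alpha chains, Lama1 held 0.102 to 0.140 of the level of Lama5 in KO, 0.168 to 0.339 in wild type in 2i and 0.156 to 0.347 in FBS.

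One fibroblast marker stood apart between the media: S100a4, a calcium-binding protein, averaged 2.11 ± 0.601 FPKM in KO, 1.196 ± 0.486 in wild type in 2i and 47.6 ± 9.66 in FBS, a choice made after its values were seen.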
